A study of Mus musculus with 4 samples.

Results

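Genes of iron and heme handling were examined across the cell classes of mouse liver tumours, in 10 rows of a table of 17813 genes. They were chosen by name for their known roles: the plasma iron carrier Trf, its receptor Tfrc, the phagosomal metal transporter Slc11a1, the ferritin subunits Fth1 and Ftl1, the iron exporter Slc40a1 (ferroportin), the hormone Hamp (hepcidin), the haemoglobin-haptoglobin receptor Cd163, and the heme-degrading enzymes Hmox1 and Blvrb. All 10 were present in the table. The study profiled single cells from 4 samples of tumour-bearing liver, 2 labelled Miz1F/F (both Miz1 alleles floxed) and 2 labelled Miz1ΔHep, from C57BL/6 mice aged 5 months. Every mouse had received the carcinogen diethylnitrosamine at 25 mg/kg in week 2 of life and then carbon tetrachloride at 0.5 ml/kg each week, so no untreated liver is in the series. The labels name neither the Cre driver behind Miz1ΔHep nor how many mice went into a sample.

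Iron travels in plasma bound to transferrin, enters cells through the transferrin receptor and is stored in ferritin, a shell of heavy (Fth1) and light (Ftl1) chains. Kupffer cells, the resident macrophages of the liver, also take up aged red cells, open their heme with heme oxygenase 1 and return the iron to plasma through ferroportin. Hepatocytes secrete transferrin and hepcidin, the hormone that binds ferroportin and closes this exit.

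The cells carried 4 barcode suffixes, called barcode sets 1 to 4, and nothing in the sources used here says which sample or genotype a set came from. Genotypes are therefore not compared, and values are given set by set without treating the sets as replicates. They held 2574, 6224, 4825 and 11179 cells, with median depths of 2648, 906, 1037 and 1859 UMIs (unique molecular identifiers, each counting 1 RNA molecule). In all, 748 cells carried a barcode that occurs in more than one set, and leaving them out changed no call of a member gene between classes. A level is the mean over cells of a gene's share of the cell's UMIs, per 1000000 UMIs (CPM).

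Transcripts of 4 members carry a hairpin that ties their use to the cell's iron, the iron-responsive element, and they are shown first because the levels below are of RNA only. In a 5′ untranslated region (UTR) the element is known to let iron regulatory proteins hold back translation, so RNA levels of ferritin and ferroportin do not give protein. In the 3′ UTR of the transferrin receptor it protects the RNA when iron is low. The search was for a C, 5 bases of stem, the loop CAGTGN and 5 bases pairing with the stem (G-T pairs allowed), on the sense strand of GENCODE vM21 basic transcripts (GRCm38). Such a match was found in the 5′ UTR of 28 of 20544 genes (0.136%) and in the 3′ UTR of 127 of 20920 (0.607%). The matches in the genes described here are given as 25 bases each, 5′ to 3′, with the first 5 loop bases in capitals:
Fth1, 5′ UTR, exon 1, chr19:9982734-9982758, plus strand: cctgcttcaaCAGTGcttgaacgga
Ftl1, 5′ UTR, exon 1, chr7:45459781-45459805, minus strand: cttgcttcaaCAGTGtttgaacgga
Slc40a1, 5′ UTR, exon 1, chr1:45925467-45925491, minus strand: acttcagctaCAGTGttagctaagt
Tfrc, 3′ UTR, exon 19, chr16:32631221-32631245, plus strand: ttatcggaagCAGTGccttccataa
Tfrc, 3′ UTR, exon 19, chr16:32631600-32631624, plus strand: ttatcgggagCAGTGtcttccataa
Tfrc, 3′ UTR, exon 19, chr16:32631665-32631689, plus strand: atatcggagaCAGTGatctccatat
Tfrc, 3′ UTR, exon 19, chr16:32631712-32631736, plus strand: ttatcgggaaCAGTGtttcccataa
Tfrc is the one of them with more than 1 match, at 4 places in its last exon. Among the other genes of the pathway list, Alas2, which starts heme synthesis in red cell precursors, held a match in its 5′ UTR (exon 1, chrX:150547460-150547484, plus strand):
Alas2: ggttcgtcctCAGTGcagggcaaca

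The remaining members held no match to that pattern, which says only that these letters are not there. Their genes lie at chr9:103204001-103230444 (Trf, minus strand), chr1:74375195-74386062 (Slc11a1, plus), chr7:30942368-30944032 (Hamp, minus), chr6:124304656-124330527 (Cd163, plus), chr8:75093621-75100589 (Hmox1, plus) and chr7:27447978-27466144 (Blvrb, plus). Counts of Ftl1 are uncertain because the table also lists a near-identical copy, Ftl1-ps1, and Hamp has a near copy in Hamp2. The gene model of Trf overlaps Gm20425 on the same strand, so reads of the 2 could be mixed.

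Cells fell into 17 classes by marker genes, with all iron and heme genes kept out of the clustering. Kupffer cell-like cells numbered 1991, hepatocyte-like cells 1146 and erythroid cell-like cells 241. The genes summed below were also on the lists that named the classes. Their sums had to be high and do not check the names. Clec4f, Vsig4, Timd4 and Cd5l, defining genes of Kupffer cells, summed to 8999 CPM in the first (6725 to 10234.5 over sets) and to 59.6 in B cell-like cells. Alb, Apoa1, Ttr and Fabp1, major hepatocyte products, summed to 83779.5 CPM in the second. Haemoglobin genes made up 644677 CPM of the third. A macrophage cluster led by Ms4a7, Mmp13, Gpnmb and Trem2 had near-equal scores for Kupffer (0.68) and monocyte/macrophage markers (0.67; 699 cells) and is named by genes only. An epithelial cluster led by Tm4sf4, Clu, Krt8 and Sox9 (805 cells) scored highest on a marker list for such cells (3.45, against 0.81 for hepatocytes) that names no cell type.

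Hepatocyte RNA outside hepatocytes moves with several results. The same 4 hepatocyte products stood at 718, 7250.0, 713 and 6160 CPM in sets 1 to 4 of B cell-like cells, which do not make them. Kupffer cell-like cells had 1577, 6643, 1171 and 5369 CPM of them, again high in sets 2 and 4. Low levels of Trf and Hamp outside the epithelial classes are read against this background.

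The 10 genes peaked in 5 different classes. Kupffer cell-like cells had the highest median level of 5 members (Hmox1, Slc40a1, Cd163, Tfrc and Blvrb), hepatocyte-like cells of Trf, the Krt8/Sox9 cluster of Hamp, the Gpnmb/Trem2 cluster of Ftl1 and Slc11a1, and neutrophil-like cells of Fth1. In all 4 sets the leading class stayed above every other class for Hmox1, Slc40a1, Ftl1 and Trf. The order was less firm for Blvrb, whose leading class was highest in 2 of 4 sets, and for Hamp, highest in 1 of 3.

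**Figure D1:**
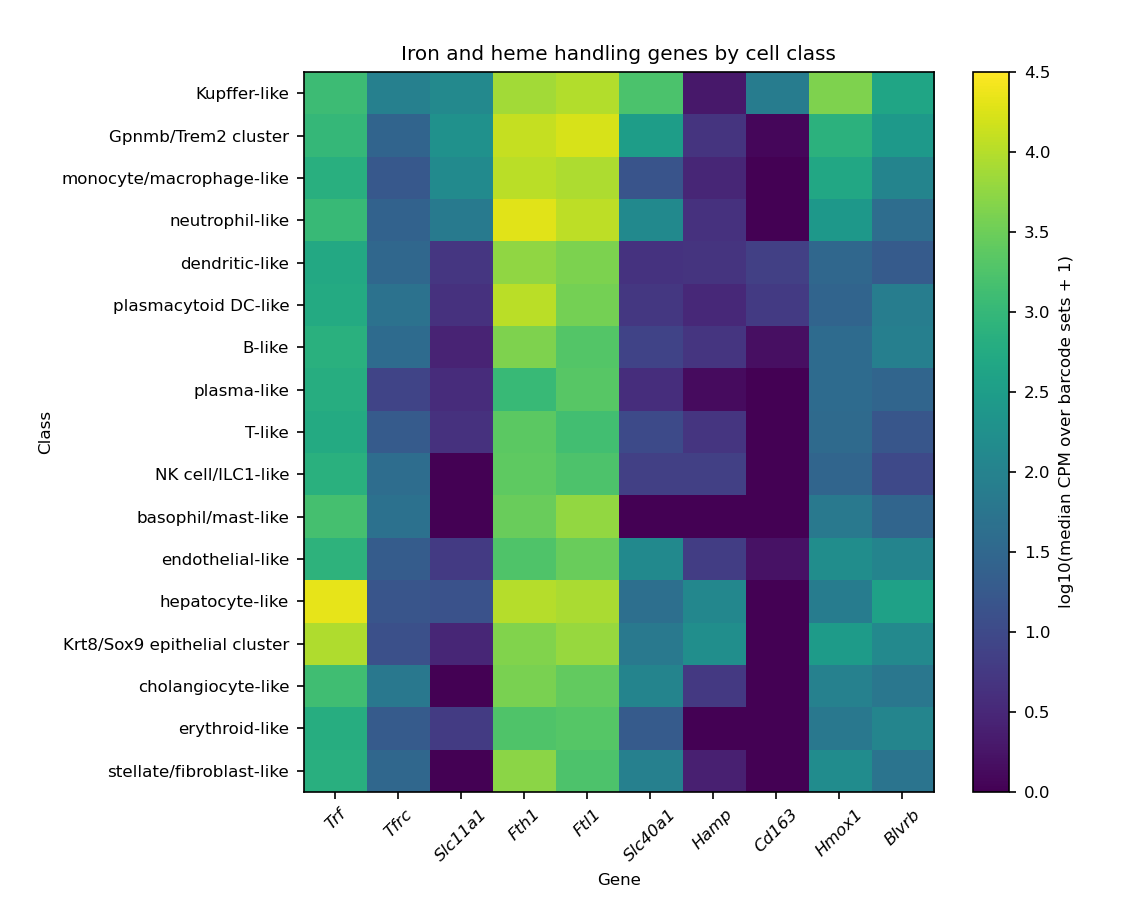
Level of each of the 10 genes (columns) in the 17 cell classes (rows). Colour gives log10 of the median CPM over barcode sets plus 1; Hmox1 and Slc40a1 peak in Kupffer cell-like cells at 4264 and 1680.2 CPM, Trf in hepatocyte-like cells at 21432 CPM, and Cd163 is near 0 outside Kupffer cell-like cells.

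Transferrin, the iron carrier that hepatocytes secrete, was highest in hepatocyte-like cells. Trf stood at 21611, 21357, 11378 and 21507 CPM in hepatocyte-like cells of sets 1 to 4. Set 3, with 50 such cells, was the low one. Of these, 35 were of cluster 18, the hepatocyte-like cluster with less Trf described below (6612.5 CPM in set 3). The Krt8/Sox9 cluster followed at 9088.5, 7210 and 13123 CPM in sets 2 to 4. Its values overlapped those of hepatocyte-like cells across sets but were the lower ones within each set. Trf was seen in every class, with medians from 526 CPM in dendritic cell-like cells to 1477.5 CPM in basophil/mast cell-like cells outside the epithelial classes and cholangiocyte-like cells (1299 CPM).

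The low level outside the epithelial classes was set against that of other hepatocyte products. Trf came to 22.7 UMIs for each 100 UMIs of the 4 hepatocyte products in hepatocyte-like cells (21.1 to 23.9 over sets). The ratio was 22.0 in B cell-like cells (20 to 26.5) and 22.2 in T cell-like cells (21.6 to 25.5), close to the ratio in hepatocyte-like cells, and 28.8 in NK cell/ILC1-like cells (23.2 to 41.6). It was higher in the Krt8/Sox9 cluster, at 53.0 (51.1 to 63.6), in Kupffer cell-like cells, at 53.5 (30.8 to 102.5), and in the Gpnmb/Trem2 cluster, at 78.1 (36.2 to 197.5). Plasma cell-like cells had 63.2 (28.6 to 102.9), monocyte/macrophage-like cells 47.4 (23.96 to 107.2) and dendritic cell-like cells 37.3 (25.3 to 58.1). The lowest set of each of these 6 lay above the highest set of hepatocyte-like cells. Within the macrophage classes the ratio was highest in sets 1 and 3, where their hepatocyte products were lowest.

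The transferrin receptor brings that iron into cells, and no class stood far ahead of the next. Tfrc stood at 67.1, 129.2, 83.7 and 99.4 CPM in Kupffer cell-like cells, from 348 UMIs. Plasmacytoid dendritic cell-like cells followed at 46.9, 51.6, 93.4 and 37.2 CPM, and cholangiocyte-like cells had 109.2 and 16.7 CPM in their 2 usable sets, so the order of these 3 differs between sets. In erythroid cell-like cells, whose precursors are known for high receptor levels, Tfrc stood at 16.5, 68.3, 1.88 and 20.9 CPM, overlapping B cell-like cells (9.19 to 63.7) and reaching past them at both ends. Haemoglobin took a median of 644677 CPM of that class, which leaves a smaller share to every other gene. The median log2 ratio of all genes to B cell-like cells was -1.38, so equal CPM of Tfrc does not mean an ordinary level there. Hepatocyte-like cells had a median of 14.5 CPM.

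Slc11a1, which moves metal out of the phagosome, was highest in the macrophage, monocyte/macrophage-like and neutrophil-like classes, and low in dendritic cell-like cells (median 4.23 CPM). The Gpnmb/Trem2 cluster had 188.6, 248.1, 186.9 and 172.8 CPM, monocyte/macrophage-like cells 171.4, 178.4, 81.5 and 114.3, and Kupffer cell-like cells 228.5, 117.4, 74.5 and 144.2. Those 3 overlap, and set 1 puts Kupffer cell-like cells first. Neutrophil-like cells followed at a median of 71.7 CPM, and every other class had a median of at most 12.6 CPM, that of hepatocyte-like cells. Plasma cell-like cells of set 1 (59 cells) were an exception by set, at 123.7 CPM, from 12 UMIs over all sets.

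**Figure D2:**
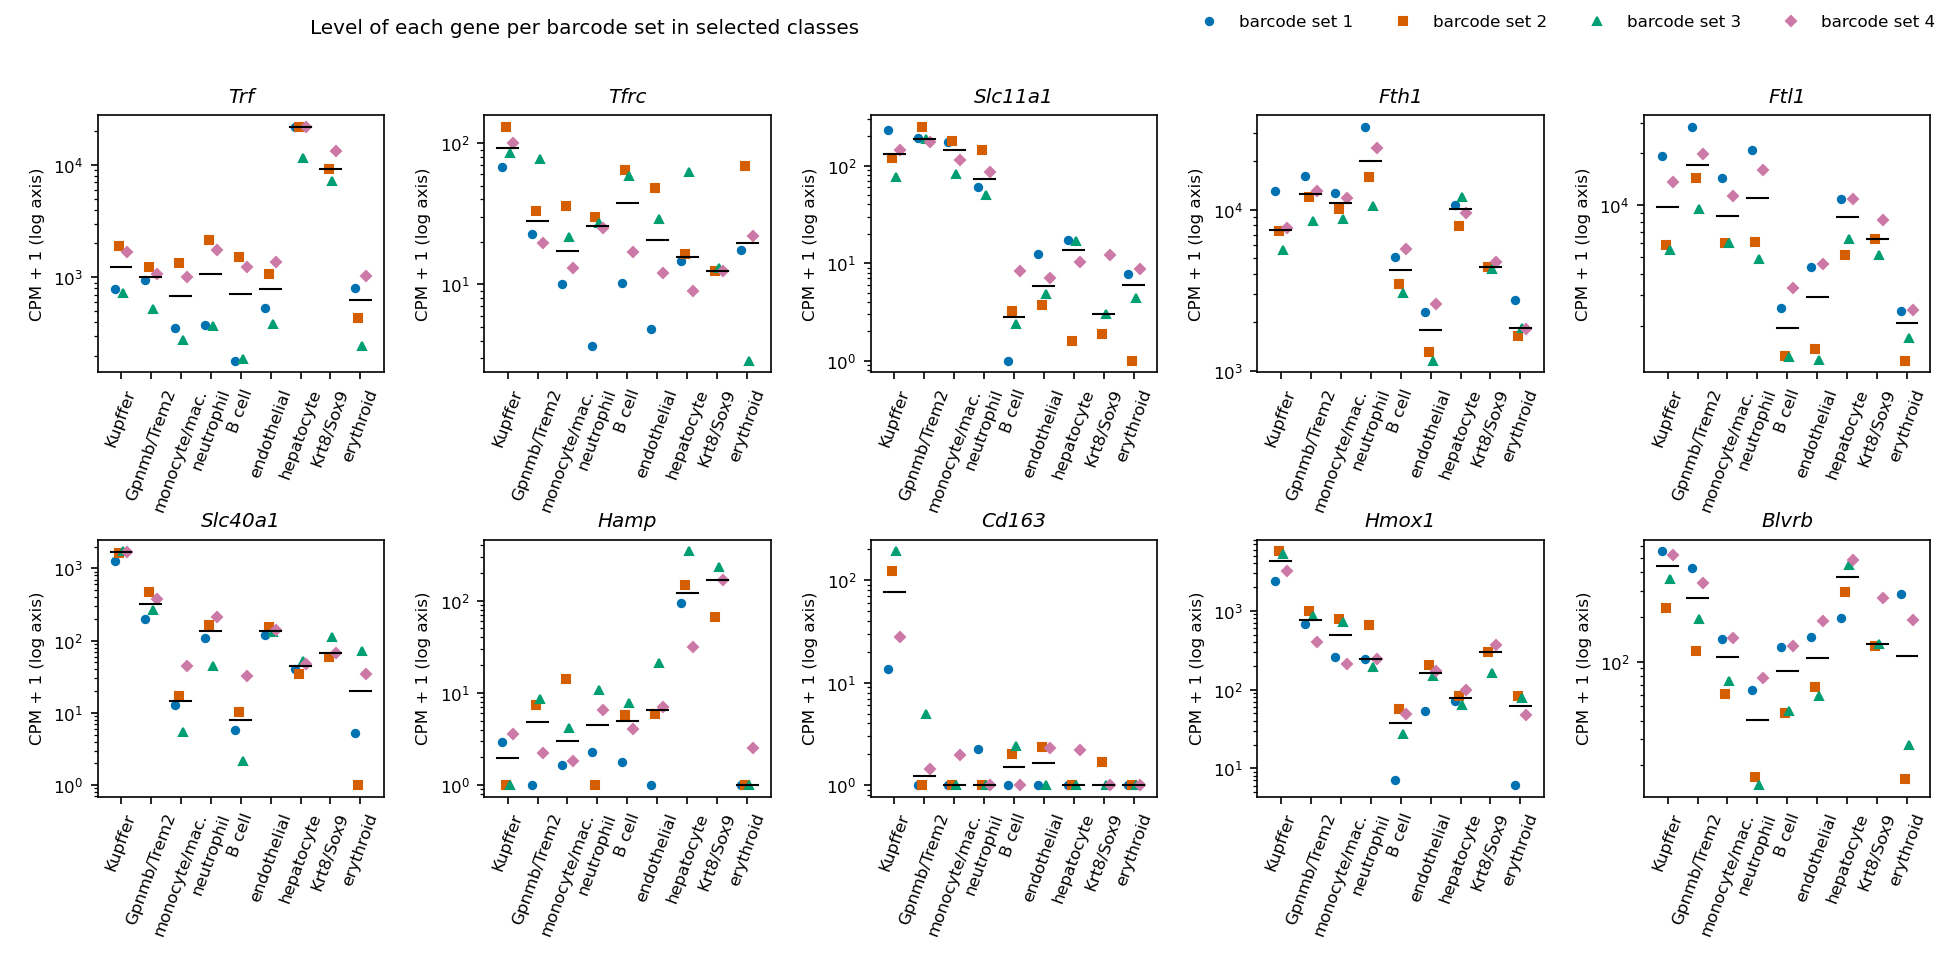
CPM plus 1 (log axis) of each gene in 9 classes, with 1 point for each barcode set of at least 20 cells and a black line at the median over sets. Hmox1 and Slc40a1 points of Kupffer cell-like cells lie above all points of the other classes, while Fth1 and Ftl1 points overlap among the myeloid and hepatocyte-like classes.

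Ferritin RNA was found in every class, and the heavy chain was highest in neutrophil-like cells in 3 of 4 sets. Fth1 reached 32563, 15819, 10585 and 23996 CPM in neutrophil-like cells. The Gpnmb/Trem2 cluster had 16252.5, 11910.0, 8449 and 13122 CPM, and Kupffer cell-like cells 12972, 7341, 5628 and 7657. Neutrophil-like cells were above Kupffer cell-like cells in each set, but below hepatocyte-like cells (12036 CPM) in set 3. Both classes join clusters of unlike Fth1 level, described below. In set 3, 55 of 120 neutrophil-like cells were of cluster 4 (3599 CPM) and 65 of cluster 0 (16496 CPM). Of the 50 hepatocyte-like cells of that set, 35 were of cluster 18 (14962 CPM). The part of this mix in the order was not tested. Plasmacytoid dendritic cell-like (median 10968 CPM), monocyte/macrophage-like (10955) and hepatocyte-like cells (10068) lay within each other's ranges, and plasma cell-like cells were lowest at 1055.

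The light chain had another leader. Ftl1 stood at 28394, 14385, 9542 and 19844 CPM in the Gpnmb/Trem2 cluster, above neutrophil-like cells (20947, 6110, 4903 and 16033 CPM) in every set. Kupffer cell-like cells had 19237, 5908, 5466 and 13599 CPM, and T cell-like cells were lowest at a median of 1388. Sets 1 and 4 were high in each of these classes and sets 2 and 3 low.

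Ferroportin, the exporter, had its highest level in each set in Kupffer cell-like cells. Slc40a1 stood at 1281.5, 1658, 1724 and 1703 CPM there, a narrow spread, with 7036 UMIs in all. The Gpnmb/Trem2 cluster had 197.5, 463.9, 268.5 and 380.9 CPM, and no set of it reached any Kupffer value. Neutrophil-like (median 134.7 CPM) and endothelial cell-like cells (133.5) came next and overlap, whereas monocyte/macrophage-like cells had 11.7, 15.9, 4.44 and 43.0 CPM. A UMI of Slc40a1 was found in 75.7% of Kupffer cell-like cells (95% exact interval 73.8% to 77.6%) at a median depth of 1305 UMIs, and in 2.49% of B cell-like cells (2.13% to 2.89%) at 1170 UMIs. With each cell thinned to 500 UMIs the shares were 52.3% and 1.02%.

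Levels of Slc40a1 outside Kupffer cell-like cells were likewise set against the Kupffer genes found in the same class; where those UMIs came from was not tested. For each 100 UMIs of the 4 Kupffer genes, Slc40a1 gave 19.6 UMIs in Kupffer cell-like cells (15.1 to 22.3), 14.8 in B cell-like (13.3 to 18.1) and 17.4 in plasma cell-like cells (8.89 to 19.4). Endothelial cell-like cells gave 165.9 (71.1 to 550), neutrophil-like cells 83.8 (74.1 to 266.7) and the Krt8/Sox9 cluster 158.7 (69.8 to 1410.0), each with its lowest set above the highest Kupffer set. Hepatocyte-like cells were mixed, at 72.3 (19.3 to 450), from 156 UMIs of Slc40a1. UMIs of the Kupffer genes numbered 1293, 309, 321 and 370 in endothelial cell-like, neutrophil-like, Krt8/Sox9 and hepatocyte-like cells. In each of those classes the highest ratio came from the set with the lowest Kupffer gene level (55.4, 5.55, 5.37 and 4.59 CPM). Those upper ends rest on few UMIs.

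**Figure D3:**
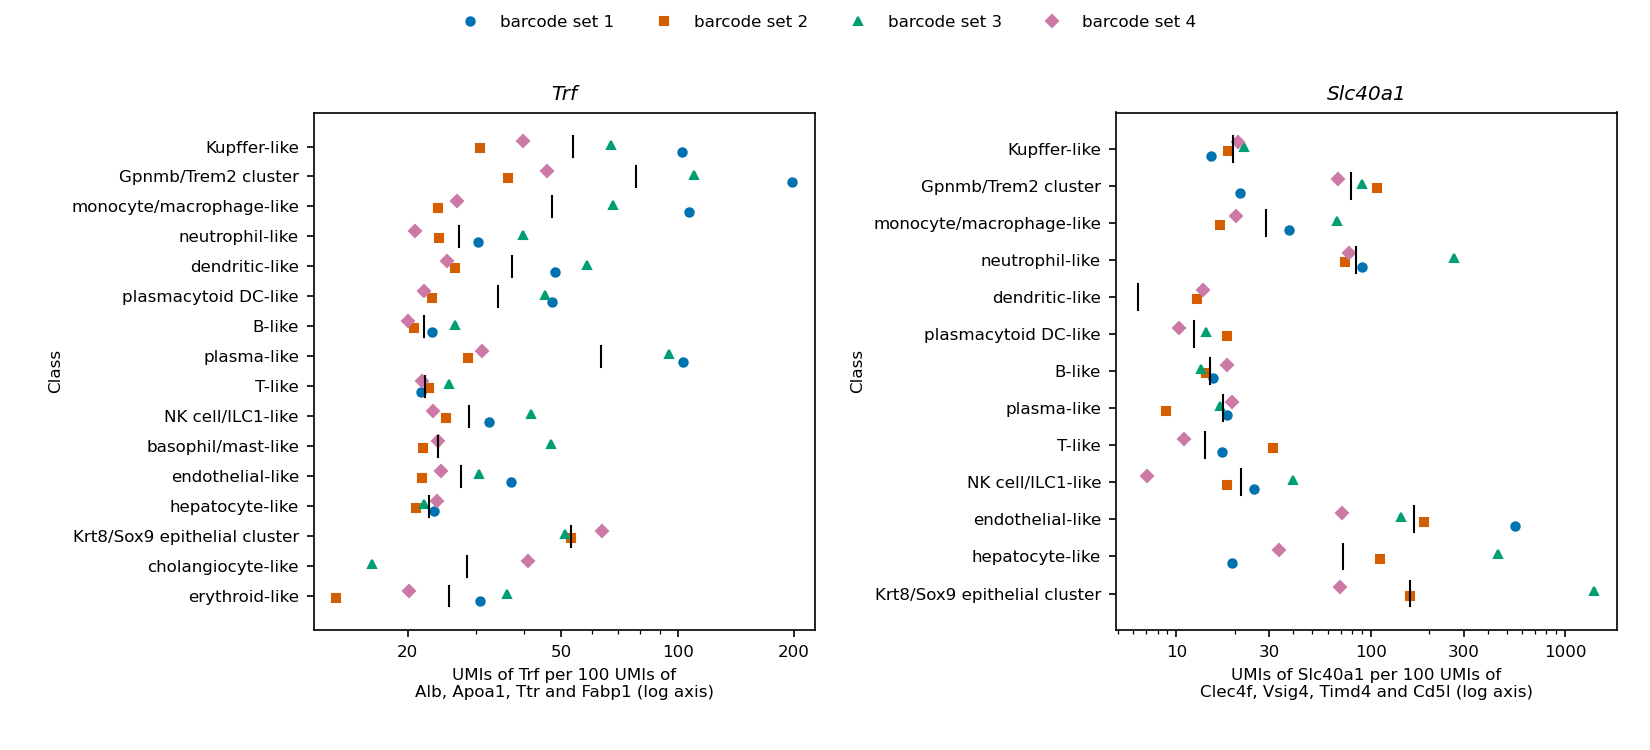
UMIs of Trf per 100 UMIs of 4 hepatocyte products (left) and of Slc40a1 per 100 UMIs of 4 Kupffer genes (right), both on log axes, by class and barcode set, with a black line at the median over sets; ratios of 0 are not drawn and classes with under 100 marker UMIs are left out. B and T cell-like cells lie with hepatocyte-like cells for Trf, near 22 UMIs, while endothelial cell-like cells lie far above Kupffer cell-like cells for Slc40a1.

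Hepcidin transcripts came from few epithelial cells. Hamp stood at 93.9, 146.8, 341.9 and 30.5 CPM in hepatocyte-like cells and at 66.0, 228.7 and 168.2 CPM in sets 2 to 4 of the Krt8/Sox9 cluster. The 2 classes overlapped and their order changed between sets, while the highest median elsewhere was 6.20 CPM, from 5 UMIs in NK cell/ILC1-like cells. A Hamp UMI was found in 87 of 1146 hepatocyte-like cells, or 7.59% (6.13% to 9.28%), and in 15.3% of the Krt8/Sox9 cluster (12.9% to 17.95%), whose cells were deeper (median 6272 against 1562 UMIs). At 500 UMIs per cell the shares were 3.22% and 4.72%, against 0.273% in B cell-like cells. The 87 hepatocyte-like cells carried 510 Hamp UMIs.

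Cd163 takes up haemoglobin bound to haptoglobin. It was scarce and highest in Kupffer cell-like cells in 3 of 4 sets, at 12.7, 123.5, 190.9 and 26.9 CPM, from 164 UMIs. Sets 2 and 3 were high and sets 1 and 4 low, and those groups of sets do not overlap. Dendritic cell-like cells were next with 17 UMIs (19.8, 6.93, 5.05 and 5.04 CPM), above Kupffer cell-like cells in set 1. No Cd163 UMI was counted in plasma cell-like, NK cell/ILC1-like, basophil/mast cell-like, cholangiocyte-like, erythroid cell-like or stellate cell/fibroblast/mesothelial cell-like cells, which, at a limit of 3 UMIs, allows 0.568, 1.79, 15.15, 6.81, 2.85 and 12.6 CPM in that order. In the basophil/mast and stellate classes this limit is about the Kupffer level of set 1, so a count of 0 there says little. A Cd163 UMI was present in 5.32% of Kupffer cell-like cells (4.38% to 6.403%).

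Heme oxygenase 1 opens the heme ring and frees its iron. Hmox1 stood at 2381, 5705, 5305 and 3223 CPM in Kupffer cell-like cells. The Gpnmb/Trem2 cluster had 675.8, 1002, 853 and 398 CPM and monocyte/macrophage-like cells 259.7, 797.4, 716.7 and 210.4 CPM, both far below in each set and high in sets 2 and 3. The Krt8/Sox9 cluster (159.4 to 366.5 CPM) and neutrophil-like cells (194 to 654.8 CPM) overlapped, and hepatocyte-like cells had 70.7, 82.8, 62.5 and 98.4 CPM. A Hmox1 UMI was found in 78.6% of Kupffer cell-like cells (76.7% to 80.4%) and in 4.39% of B cell-like cells (3.92% to 4.91%), and at 500 UMIs per cell in 56.6% and 2.16%.

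Blvrb RNA was high in both Kupffer cell-like and hepatocyte-like cells, unlike that of Blvra (medians of 118.2 and 17.4 CPM, and 91.5 in the Gpnmb/Trem2 cluster). Blvrb, which reduces biliverdin and flavins, stood at 553.6, 228.9, 361.5 and 520.7 CPM in Kupffer cell-like cells and at 194.8, 293.2, 447.5 and 483.1 CPM in hepatocyte-like cells. The 2 classes overlapped, with hepatocyte-like cells higher in sets 2 and 3. The Gpnmb/Trem2 cluster had 426.3, 116.4, 192.4 and 340.5 CPM, overlapping both, and was above hepatocyte-like cells in set 1. Erythroid cell-like cells had 286.0, 15.1, 26.4 and 190.8 CPM, high in sets 1 and 4.

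Pairs of classes were then set against each other within each set. The measure was the log2 ratio after adding 10 CPM to both levels, and genes averaging under 20 CPM were not used. A gene is called where every set used differs at least 2-fold in the same direction. No test was run, because sets that are tied to no sample are not treated as replicates, and each count stands beside the share of all genes called as a description. Genes under 20 CPM in 1 of the 2 classes pass the level filter only through the higher class. The filter thus favours a difference in such genes, though it does not force a call. Called genes of this kind are named with each pair, and no count that holds them is support.

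Between Kupffer cell-like and hepatocyte-like cells all 10 members passed the level filter. Higher in Kupffer cell-like cells were 4, where 19.9% of 5404 genes were: Hmox1 by 5.42 (4.89 to 6.20 over sets), Slc40a1 by 4.86 (4.72 to 5.27), Slc11a1 by 3.09 (1.71 to 3.59) and Cd163 by 2.73 (1.18 to 4.33). Lower were 2, where 10.3% of genes were: Trf at -3.82 and Hamp at -3.55 (-5.14 to -1.68). Slc11a1 and Cd163 (medians of 12.6 and 0 CPM in hepatocyte-like cells), Tfrc and Hamp passed the filter through 1 class only. The call of Slc11a1 was lost with summed UMIs and with the iron genes kept in the clustering. Tfrc had a median of 2.08 but 0.40 in set 3, without which it was called at 2.46, and the ferritin genes and Blvrb had medians between -0.21 and 0.26. The median over all genes was 0.48. Of 35 other pathway genes tested, 5 were called higher (Spic, Ncoa4, Lrp1, Blvra and Flvcr1) and 8 lower (Hpx, Hp, Lcn2, Cp, Tmprss6, Alad, Tfr2 and Urod). Those 8 hold secreted scavengers of heme and haemoglobin (Hpx, Hp), the plasma ferroxidase Cp and the hepatocyte regulators of hepcidin Tfr2 and Tmprss6. Lcn2, Tmprss6, Alad, Tfr2 and Urod, with medians under 20 CPM in Kupffer cell-like cells, passed the filter through the hepatocyte class only. Spic, Blvra and Flvcr1, under 20 CPM in hepatocyte-like cells, passed it through the Kupffer class only.

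Against monocyte/macrophage-like cells, 5 of 9 members tested were higher in Kupffer cell-like cells and 0 lower, where 5.81% and 3.61% of 5287 genes were called. Slc40a1 led at 5.95 (5.01 to 6.91), followed by Hmox1 at 3.01 (2.82 to 3.88), Cd163 at 2.75 (1.18 to 4.33), Blvrb at 1.85 (1.77 to 2.17) and Tfrc at 1.82 (1.61 to 2.31). Slc40a1, Cd163 and Tfrc, at medians of 13.8, 0 and 16.3 CPM in monocyte/macrophage-like cells, passed the filter through the Kupffer class only. Slc11a1 (0.10) and Ftl1 (0.12) lay near 0 with sets on both sides, and Fth1 ranged from -0.63 to 0.02. The call of Tfrc was lost with coarser or finer clustering (Leiden resolution 0.5 or 2.0). Of 32 other pathway genes, Spic (2.49), Ncoa4 (2.30) and the heme transporter Slc48a1 (1.89) were higher and Hp (-2.71) lower, the last not without the shared barcodes. Spic is a transcription factor known from red-cell-clearing macrophages, and Ncoa4 takes ferritin to the lysosome.

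**Figure D4:**
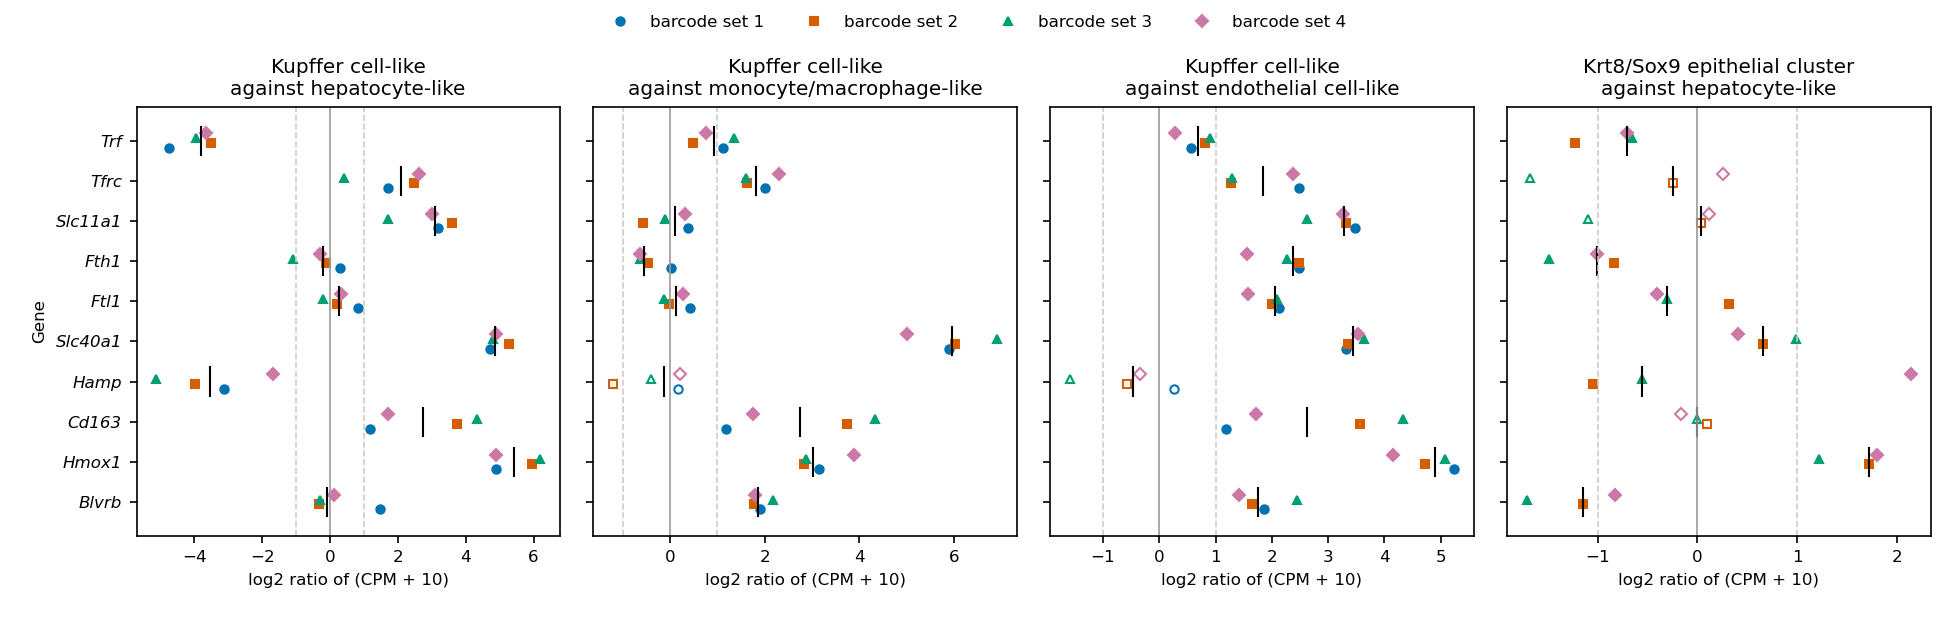
Log2 ratio of CPM plus 10 between 2 classes for each gene in 4 comparisons, by barcode set, with a black line at the median, dashed lines at 2-fold and open points for genes under the level filter. Slc40a1 and Hmox1 lie right of the 2-fold line in every set of the 3 Kupffer panels, while Fth1 and Ftl1 do so in the endothelial panel only.

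Against endothelial cell-like cells, 8 of 9 members tested were higher and 0 lower, where 8.21% and 10.7% of 6296 genes were called. Hmox1 (4.90), Slc40a1 (3.44), Slc11a1 (3.29), Cd163 (2.63), Fth1 (2.38), Ftl1 (2.05), Tfrc (1.84) and Blvrb (1.76) were called, and Trf, at 0.28 to 0.90, was not. Slc11a1, Cd163 and Tfrc, at medians of 4.90, 0.65 and 19.6 CPM in endothelial cell-like cells, passed the filter through the Kupffer class only. Of 36 other pathway genes, 5 were higher (Spic, Lrp1, Ncoa4, Slc48a1 and Blvra) and 7 lower (Bmp2, Slc39a8, Smad6, Bmp6, Alad, Smad7 and Abcg2). Spic and Lrp1, with medians under 20 CPM in endothelial cell-like cells, passed the filter through the Kupffer class only. Slc39a8, Smad6, Bmp6, Alad and Abcg2, under 20 CPM in Kupffer cell-like cells, passed it through the endothelial class only. Bmp2 and Bmp6, the liver signals that drive hepcidin, stood at 624.5 and 74.6 CPM in endothelial cell-like cells against 24.3 and 0.221 in Kupffer cell-like cells. The endothelial cell-like class was made of different clusters in different sets, cluster 17 holding most of it in sets 2 and 3 and cluster 20 in sets 1 and 4.

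The Krt8/Sox9 cluster was compared with hepatocyte-like cells in sets 2 to 4. Of 7 members tested, Hmox1 was higher, at 1.72 (1.22 to 1.8), and 0 were lower, where 8.19% and 4.27% of 5264 genes were called. Fth1 (-1.49 to -0.84), Blvrb (-1.71 to -0.83) and Trf (-1.23 to -0.66) lay below 0 in each of the 3 sets without all passing 2-fold. Hamp ranged from -1.05 in set 2 to 2.14 in set 4. The cluster's cells are deeper by 6272 against 1562 median UMIs, and in cells within 2-fold of their class's median depth Hmox1 had a median of 1.62 and was not called. Id1, a target of BMP signals, was the 1 other pathway gene called of 32 (1.84), and 2 were called without the shared barcodes.

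Erythroid cell-like cells, set against B cell-like cells as a class with no known role in iron recycling, showed 0 of 6 members called in either direction. Of 3705 genes, 0.405% were called higher and 22.8% lower, and the median of all genes was -1.38, beside 644677 CPM of haemoglobin in erythroid cell-like cells. Fth1 ranged from -1.64 to -0.72, and the others had sets on both sides of 0 (Ftl1 -0.42 to 0.36, Trf -1.75 to 2.10). Different clusters held most B cell-like cells in different sets, cluster 8 in sets 1 and 3, cluster 23 in set 2 and cluster 19 in set 4. With haemoglobin left out of the cell totals, an alternative added after seeing the data, Ftl1 was called higher at 1.59 and Blvrb became highest in erythroid cell-like cells among all classes. Of 20 other pathway genes tested, 2 were called higher and 2 lower. Alas2 stood at 1710.0, 426.3, 652.5 and 1564 CPM (6.36 above B cell-like cells). Fech, which inserts iron into heme, had 241.6, 66.7, 155.9 and 187.4 CPM (3.19). These 2 heme synthesis genes, at medians of 1.27 and 10.2 CPM in B cell-like cells, passed the filter through the erythroid class only. The iron chaperones Pcbp1 and Pcbp2 were called lower, at -1.80 and -1.49, near the median of all genes (-1.38).

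Of the 67 genes on the pathway list, 64 were in the table and 56 reached 20 CPM in at least 1 class. Kupffer cell-like cells held the highest level of 13 of the 56, where they held that of 5.81% of all 10643 genes at that level, and hepatocyte-like cells held 9 (7.96% of all). By role, the genes of highest level were as follows. In heme synthesis Alas2 and Fech peaked in erythroid cell-like cells, Alad in hepatocyte-like cells (117.4 CPM) and Urod in stellate cell/fibroblast/mesothelial cell-like cells (77.3 CPM, 1 set). Among scavengers, Hpx and Hp peaked in hepatocyte-like cells at 2857 and 1968.5 CPM. Among heme transporters, Slc48a1 had 146.1 CPM in Kupffer cell-like cells, behind 211.3 in the 1 usable set of stellate cell/fibroblast/mesothelial cell-like cells.

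Further uptake genes sat outside the recycling cells. The siderophore binder Lcn2 peaked in cholangiocyte-like (1016.5 CPM) and neutrophil-like cells (915.1), lactoferrin (Ltf) in neutrophil-like cells (623.3) and the metal importer Slc39a8 in stellate cell/fibroblast/mesothelial cell-like cells (569.7). Of the exporters' ferroxidases, Cp peaked in the Krt8/Sox9 cluster at 2310.5 CPM and Heph in endothelial cell-like cells at 31.5. Among the sensors, Nfe2l2 (772.2 CPM) and Fbxl5 (153.5) peaked in neutrophil-like cells, Bach1, the heme-sensing repressor of Hmox1, in monocyte/macrophage-like cells (132.9), and Spic in Kupffer cell-like cells (214.1). Bach1 had 46.1 CPM in Kupffer cell-like cells. Of the mitochondrial genes, Slc25a37, which imports iron for heme synthesis, peaked in erythroid cell-like cells (115.0 CPM).

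The classes were not uniform inside. Kupffer cell-like cells formed cluster 7 (led by Fcna, Hmox1, Cd5l and Vsig4; 1481 cells, median 1610 UMIs) and cluster 13 (led by C1qb, Folr2 and Clec4f; 510 cells, 878 UMIs). Hmox1 stood at 3127, 6137 and 4122 CPM in cluster 7 of sets 1, 2 and 4 and at 1245.0, 1219 and 1072 in cluster 13. Slc40a1 stood at 1820.1, 1721 and 1976 against 461.3, 999.9 and 1048 CPM. Blvrb went the other way, at 362.5, 221.7 and 409.6 CPM in cluster 7 and 844.8, 303.3 and 786.7 in cluster 13, as did Ftl1 (14410, 5748 and 12485 against 26589, 7573 and 16266). Each of these 4 genes kept its direction in sets 1, 2 and 4, with 1 value per cluster and set. Cluster 13 of set 2 rests on 33 cells at a median of 543 UMIs. Set 3 had 7 cells in cluster 13 and gives no value.

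Hepatocyte-like cells split in the same manner between transferrin and ferritin. Cluster 5 (led by Alb and Serpina3k; 635 cells) had Trf at 26912, 26870.1 and 31640.4 CPM in sets 1, 2 and 4, and cluster 18 (led by Fabp1, Gstm3 and Gsta1; 511 cells) at 14714, 10744.5 and 11293. Fth1 stood at 5492.5, 5444 and 3663 CPM in cluster 5 and at 17289.5, 12750 and 15416.5 in cluster 18, and Ftl1 at 7540.3, 3494 and 3937 against 15173.5, 8289 and 17941. The cluster with less Trf RNA thus had more ferritin RNA in each of the 3 sets, and a relation between single cells was not tested. In set 1 the depths of the clusters were close (medians 949.5 and 1152 UMIs). Cluster 5 was the deeper in set 2 (5964 against 922.5) and in set 4 (2683 against 1284).

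Neutrophil-like cells split by ferritin too. Cluster 0 (led by G0s2 and Acod1; 1121 cells) had Fth1 at 37684.5, 18544, 16496 and 25672.5 CPM, and cluster 4 (led by Ngp, Camp and Ltf, granule genes of young neutrophils; 220 cells) at 8618, 4462, 3599 and 6394. Ftl1 followed, at 24626, 7028.0, 6770.3 and 17112 CPM against 3745, 2283, 2696 and 4704. Cluster 4 cells were deeper in each set (median 4824 against 946 UMIs over all sets), and the part of depth in this difference was not tested. An unnamed cluster of 412 cells with both Kupffer and endothelial markers had Hmox1 at 2323 and Slc40a1 at 963.4 CPM over its cells, between the levels of those 2 classes.

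Likeness of pattern was measured as Pearson's r of log2(CPM + 10) across the 17 class medians among 10643 genes, for members whose leading class was at least 5 times above the median class. The points share libraries and differ in depth, so r is a description. Nearest to Hmox1 were Acp2 (0.926), Lpl (0.896) and Sat1 (0.882), and nearest to Slc40a1 Vcam1 (0.937), Dmpk (0.899) and Rcan1 (0.884). Nearest to Trf were Fga (0.973), Azgp1 (0.960) and Nags (0.954), and to Hamp Gcgr (0.985), Abcc2 (0.981) and Gulo (0.981). Nearest to Cd163 were Gfra2 (0.963), Gbp2b (0.959) and Pcolce2 (0.955), to Slc11a1 Fcgr4 (0.960), Treml4 (0.949) and Pilrb1 (0.948), and to Blvrb Hebp1 (0.809), Lpl (0.805) and Nr1h3 (0.80). Among the members themselves, the 5 highest values were those of Trf and Hamp (0.91), Hmox1 and Slc40a1 (0.86), Hmox1 and Slc11a1 (0.80), Ftl1 and Slc11a1 (0.79) and Fth1 and Ftl1 (0.74).

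The antioxidant response element, the site through which Nfe2l2 acts on Hmox1 and ferritin genes at enhancers and promoters, was sought as TGAC, any 3 bases and GC, on both strands of RefSeq promoters (GRCm38.p6). A promoter was found for 7 members, and 0 of the 7 held these letters, against 10 of 45 genes of the pathway list, members included, and 14% of 27025 genes (12.4% of 32851 promoters). It says only that these letters are not in that window.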

How the data were processed

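Single-cell RNA was captured with 10x Chromium Single Cell 3′ v2 chemistry and read on a HiSeq XTEN, as stated per the labels' protocols. CASAVA 1.8, Cell Ranger, Seurat and mm10 are named per the submitters' processing notes; other versions, filters and any doublet removal: not given in the sources used here. As deposited, the authors' 1 table holds natural log values, ln(1 + 10000 × a gene's share of the cell's UMIs). Each cell's values were whole multiples of its smallest (100% within 0.001), which gave back 65920312 UMIs in 24802 cells; the fewest genes in a cell was 201.

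No cell was removed and no doublet caller was run. Cells were clustered with Scanpy 1.11.5 (2000 variable genes, 30 principal components, 15 neighbours, Leiden resolution 1.0) without the 64 iron and heme genes in the table, giving 27 clusters and 17 named classes, with 510 cells unnamed. Levels need at least 20 cells of a class in a set. A call is at least 2-fold in every set used. Planned tests between genotypes (limma) were not run, because nothing maps cells to samples. Intervals are exact (95%) and, like the limit of 3 UMIs for a count of 0, cover counting error only. Symbols matched GENCODE vM21 for 17545 of 17813 genes (98.5%). Scripts (Python 3.11.15, NumPy 2.4.6, SciPy 1.17.1, pandas 2.3.3) were tested on simulated data.

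The members and lists were chosen with earlier results of these data known. The genes named beside the members are the 4 of highest level in each role and the 3 most alike in pattern for each member with a clear peak; pathway genes outside this rule were named after their values were seen. Alternatives varied the pseudocount, level filter, clustering, cell filters, scaling and sets; leaving out haemoglobin, a depth window and leaving out shared barcodes were added after seeing the data.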

Additional observations from a re-analysis of the deposited data

How the results depend on the processing

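No paired analysis was possible because no label or column ties a cell to a sample or its replicate number. With a pseudocount of 100 CPM, members higher in Kupffer cell-like cells fell to 2 (1 lower) against hepatocyte-like, 3 against monocyte/macrophage-like and 4 against endothelial cell-like cells, and the Krt8/Sox9 cluster had 0 higher. Testing only genes averaging 100 CPM gave 2 (1 lower), 3 and 5, with fewer genes tested. With the median of all genes set to 0, the Krt8/Sox9 cluster had 0 higher and 2 lower (Fth1, Blvrb), and erythroid cell-like cells had 2 higher (Hmox1, and Ftl1 at 1.25). In cells with at least 500 genes, erythroid cell-like cells had 1 higher and 1 lower, with Hmox1 at -1.76. Without haemoglobin in the totals, 1 was higher, Ftl1 at 1.59. In cells within a 2-fold depth window the Krt8/Sox9 cluster had 0 higher, and erythroid cell-like cells 1 lower (Fth1). Leaving out each set in turn gave 0 to 1 members lower in the Krt8/Sox9 cluster (Fth1 without set 2, Blvrb without set 4). Beyond the constructions named, the cause was not tested. Tfrc was called higher in Kupffer cell-like than hepatocyte-like cells without set 3 (2.46). Of 10 members, 8 kept their highest class at Leiden 0.5 and 2.0, and 9 without set 1 (not Blvrb), without set 4 (not Tfrc) or with at least 500 genes per cell (not Fth1). Depth limits Cd163, Hamp and Tfrc most, with 164, 510 and 348 UMIs in the classes described.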

Other observations

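Several members ran in a common order of barcode sets across unlike classes. Every way of putting 2 sets above the other 2 was counted, and each member below is given with its most frequent order. The share of genes beside it is for that order alone. Those genes reached 20 CPM in at least 1 class and were not matched to the members in level. Of 13 classes with values in all 4 sets, Ftl1 was higher in both sets 1 and 4 than in sets 2 and 3 in all 13, as were 0.234% of 8961 genes. Fth1 had that order in 11 classes, where 2.59% of genes had it in at least as many, and Blvrb in 10 (4.70% of genes). Tfrc was higher in both sets 2 and 3 in 10 classes, as 8.18% of genes were in at least as many. Trf was higher in both sets 2 and 4 in 10 classes (1.21% of genes). Sets 1 and 4 are also the deeper ones, at median depths of 2648 and 1859 UMIs against 906 and 1037, and the part of depth in this order was not tested.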
